A study of Mus musculus with 5 samples.

Results

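Lymphoid tissue chemokines are small secreted proteins that bring lymphocytes and dendritic cells together. The 8 genes described here are 4 ligands, Cxcl13, Ccl19, Ccl20 and Cxcl12, and the 4 receptors that bind them, Cxcr5, Ccr7, Ccr6 and Cxcr4. They were chosen by gene symbol, and all 8 were present among the 23183 symbols counted. All 8 were also among the 14305 measured genes, defined by an average of 1 CPM or more across the 5 libraries (CPM, counts scaled to a common library size by the trimmed mean of M values, TMM).

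In lymph nodes and in the lymphoid aggregates that can form in inflamed airways, CXCL13 from follicular stroma draws B cells through CXCR5, and CCL19 and CCL21 draw naive T cells and mature dendritic cells through CCR7. CCL20, made mainly by epithelium, acts through CCR6 on B cells, on immature dendritic cells and on lymphocytes that make interleukin 17. CXCL12 from stroma and endothelium acts through CXCR4 on most leukocytes and retains them in tissue.

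Whole lungs of female BALB/c mice, all labelled wild type (WT), were sequenced in 5 groups with 1 library per group. The PM10/OVA/Dex group received PM10 (airborne particulate matter) and ovalbumin (OVA, a protein allergen) and was treated with dexamethasone, a synthetic glucocorticoid. The PM10/OVA/CPX group received the same exposures and a chitinase-1 inhibitor abbreviated CPX. The PM10/OVA group received both exposures without a drug, the PM10 group received PM10 alone, and the Control group is labelled as having no treatment. PM10 was given into the nose 4 times within 2 weeks, and OVA was injected into the abdomen before it was given into the nose. CPX was injected 6 times in 3 weeks and dexamethasone 3 times during the final week, and lungs were collected 2 days after the last challenge. The sources used here do not give ages, doses, the vehicle of the drugs or the number of mice behind a library.

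The libraries held between 11993222 and 16929068 counts, and the surfactant gene Sftpc, which marks alveolar epithelium, was between 12728 and 13995 CPM in all 5. With 1 library per group no difference has a replicate check, so no test and no p-value is given. Intervals are 95% intervals from the counts (exact) and cover counting error only. The Control library stood apart in genes of neighbouring tissues. Its 12 heart muscle genes summed to 3752 CPM, against 285 to 784 CPM in the other 4 libraries, its 10 fat genes to 646 CPM, against 94.8 to 265 CPM, and its 7 measured cartilage genes to 95.8 CPM, against 2.00 to 17.6 CPM. These genes also differed between libraries other than Control. In PM10/OVA/Dex against PM10/OVA, 7 of the 12 heart muscle genes were at least 2-fold higher. So were 7 of the 10 fat genes and 5 of the 7 cartilage genes. Whether any of this bears on the chemokine genes was not tested. Each comparison with Control is given beside comparisons that leave Control out, but these do not remove the difference in PM10/OVA/Dex. The thymocyte genes Rag1, Rag2 and Ptcra had at most 2 counts in any library.

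The 4 ligands and 4 receptors differed widely in level. Per kilobase of exon and averaged over the 5 libraries, the order was Cxcr4 (59.4 CPM per kb), Cxcl12 (46.5), Cxcl13 (25.4), Ccr7 (10.6), Cxcr5 (3.66), Ccl19 (2.36), Ccr6 (1.81) and Ccl20 (1.08). Cxcl13 had the widest span, with a highest library 5.84-fold above its lowest. On the scale of CPM + 1, only 1.77% of measured genes spanned more than Cxcl13, and 5.93% spanned more than Ccl20. Cxcl12 and Ccr6 lay near the median gene, whose highest library was 1.36-fold above its lowest, with 47.0% and 60.7% of genes spanning more.

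**Figure D1:**
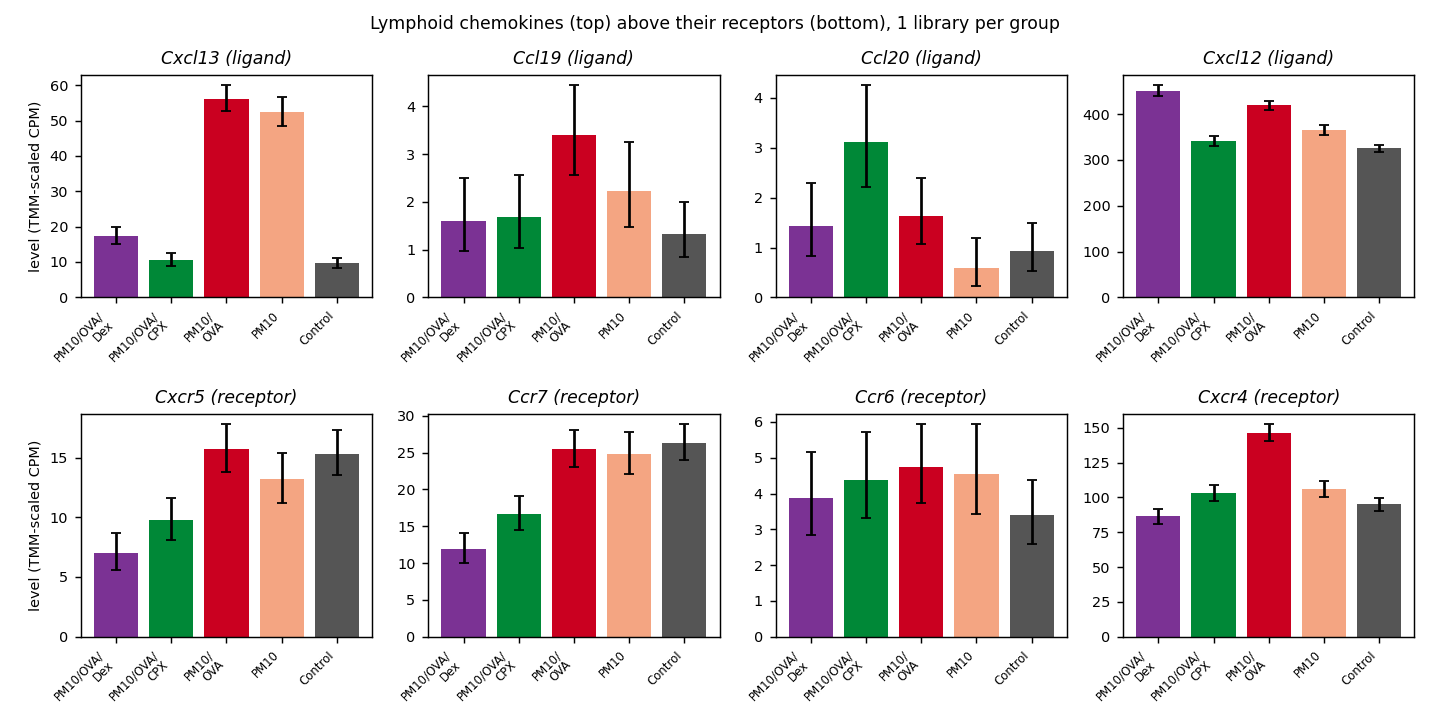
Levels of the 4 ligands (top row) and the receptor of each (bottom row) in TMM-scaled CPM, with 1 library per bar and 95% counting intervals as error bars. Each panel has its own axis from 0. Cxcl13 stands high in the PM10/OVA and PM10 libraries, Ccl20 in the PM10/OVA/CPX library, and Cxcr5 and Ccr7 are lowest in the PM10/OVA/Dex library.

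Cxcl13, the B cell attractant of lymphoid follicles, had the largest ratio of the 8 genes in 4 of the 8 comparisons made. Its level was 17.4 CPM (207 counts) in the PM10/OVA/Dex library, 10.5 CPM (131 counts) in PM10/OVA/CPX, 56.2 CPM (891 counts) in PM10/OVA, 52.4 CPM (633 counts) in PM10 and 9.63 CPM (167 counts) in Control. The PM10/OVA and PM10 libraries were high and within counting error of each other, with a ratio of 1.07 (0.967 to 1.19). The 2 lowest libraries, PM10/OVA/CPX and Control, were also within counting error of each other, at a ratio of 1.09 (0.858 to 1.37). After removal of a trend with transcript length and GC content these ratios were 0.977 and 0.837, so which library of each pair was higher depended on the processing. Cxcl13 rose 5.45-fold (4.59 to 6.5) in PM10 against Control. It was 5.37-fold lower (4.47 to 6.51) in PM10/OVA/CPX than in PM10/OVA, and 3.23-fold lower (2.77 to 3.77) in PM10/OVA/Dex than in PM10/OVA. Only 0.0979% of measured genes had a lower ratio than Cxcl13 in PM10/OVA/CPX against PM10/OVA, and 0.308% did so in PM10/OVA/Dex against PM10/OVA. The drop under either drug does not involve the Control library, but PM10/OVA/Dex and PM10/OVA also differed in genes of neighbouring tissues. In whole-lung RNA, a change in the number of cells that make a transcript and a change in the amount per cell cannot be told apart, and this holds for every gene below.

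The gene lies at chr5:95956951-95961068 on the plus strand (GRCm38, GENCODE M21 annotation). The 250 bases before its RefSeq start (GRCm38.p6, chr5:95956689-95956938, plus strand) are shown, and those of Ccl20 (chr1:83116516-83116765, plus strand) for comparison, because these are the members with the widest spans. Capitals mark the matches to either of 2 motifs, the TATA box (TATAAA) and the NF-kB consensus, each looked for on both strands.
Cxcl13: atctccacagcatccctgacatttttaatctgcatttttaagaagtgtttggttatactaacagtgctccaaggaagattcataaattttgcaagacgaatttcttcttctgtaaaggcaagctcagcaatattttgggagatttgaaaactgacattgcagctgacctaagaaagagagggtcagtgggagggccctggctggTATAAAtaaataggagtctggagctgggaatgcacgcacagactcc
Ccl20: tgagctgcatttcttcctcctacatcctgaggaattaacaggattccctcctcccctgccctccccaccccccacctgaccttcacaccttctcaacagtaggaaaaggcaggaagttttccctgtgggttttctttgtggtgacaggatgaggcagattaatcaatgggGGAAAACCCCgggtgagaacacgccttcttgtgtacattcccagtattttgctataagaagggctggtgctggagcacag
The Cxcl13 window holds a TATA box 46 to 41 bases before the start and no letters that match the NF-kB consensus. The Ccl20 window holds an NF-kB match on the minus strand, 80 to 71 bases before the start, and no TATAAA. The matches do not overlap any other match in these windows. Of 32851 RefSeq promoter windows of 300 bases (250 before and 50 after the start), 13.6% held a TATA box and 4.51% an NF-kB match. Windows were found for 6 of the 8 genes, and Cxcr5 and Ccr7 have none. Ccr6 has 2 windows, of which the second (chr17:8242276-8242575, plus strand) holds overlapping NF-kB matches 81 to 71 bases before the start. Cxcr4 (chr1:128592250-128592549, minus strand) holds overlapping TATA boxes within 32 to 25 bases before the start. A match is a description of the letters and not evidence of binding.

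Some genes of a list for lymphoid stroma and follicular dendritic cells, the known makers of CXCL13, moved with it. Of 11 measured genes of this list, 3 rose in PM10 against Control, and their median log2 ratio was 0.41, against -0.00 over all measured genes. They were Ch25h, an oxysterol-making enzyme that guides B cells, at 21.9 CPM in PM10 and 2.88 CPM in Control, the inhibitory Fc receptor gene Fcgr2b at 49.9 CPM in PM10 and 17.3 CPM in Control, and Bst1 at 89.0 CPM in PM10 and 37.2 CPM in Control. In PM10/OVA/Dex against PM10/OVA, 2 of the 11 fell (Ch25h and Cr2, the second also a gene of the B cell list) with a median of -0.58, and in PM10/OVA/CPX against PM10/OVA none passed 2-fold, with a median of -0.44. The rest of the 11 stayed under 2-fold in PM10 against Control, and 3 lay below 0. Among the rest, Pdpn was at 198 against 156 CPM and Enpp2 at 81.1 against 93.4 CPM. Which cell types carried the transcripts of this list was not tested. Of the listed markers, the addressin gene Madcam1 had at most 3 counts in any library.

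Monocyte and interstitial macrophage genes were also higher with PM10, and fewer of them fell under either drug than rose with PM10. Of 13 such genes, 11 rose in PM10 against Control, with a median log2 ratio of 1.5. Their summed level was 1783 CPM in PM10/OVA/Dex, 1841 CPM in PM10/OVA/CPX, 1628 CPM in PM10/OVA, 2064 CPM in PM10 and 1028 CPM in Control. In PM10/OVA/CPX against PM10/OVA, 1 of the 13 fell (Cd14, a co-receptor for bacterial lipopolysaccharide, at 72.7 against 148 CPM), and the median was -0.08. Against the same library, 4 of the 13 fell in PM10/OVA/Dex, with a median of -0.16. Per 1000 counts of this list, Cxcl13 had 9.76 counts in PM10/OVA/Dex, 5.68 in PM10/OVA/CPX, 34.5 in PM10/OVA, 25.4 in PM10 and 9.36 in Control, so that its high libraries stayed high after this division. The part of either cell type in the Cxcl13 levels was not tested. The genes with the most similar pattern over the 5 libraries, by root-mean-square difference of centred log2(CPM + 1) among the 11994 genes averaging 5 CPM or more, were Clec5a (0.375), the scavenger receptor gene Msr1 (0.381) and the activin subunit gene Inhba (0.402).

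Ccl19, a ligand of CCR7, was low in all libraries. It had 1.60 CPM (19 counts) in PM10/OVA/Dex, 1.68 CPM (21 counts) in PM10/OVA/CPX, 3.41 CPM (54 counts) in PM10/OVA, 2.24 CPM (27 counts) in PM10 and 1.33 CPM (23 counts) in Control. No neighbours in the order of its levels differed beyond counting error. Its largest ratio was 2.57-fold (1.55 to 4.39) in PM10/OVA over Control, and it was 2.03-fold lower (1.21 to 3.54) in PM10/OVA/CPX and 2.13-fold lower (1.24 to 3.81) in PM10/OVA/Dex than in PM10/OVA. On log2(CPM + 1), the scale used for counting genes as at least 2-fold different, these were 0.92, -0.72 and -0.76, all under the threshold of 2-fold. The mouse genome holds near-identical copies of Ccl19 and of Ccl21, and how the authors' counting treated shared reads is not known, so both levels are uncertain. Ccl19 lies at chr4:42754525-42756577 on the minus strand and overlaps 4930578G10Rik without sharing an exon.

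The other CCR7 ligand was higher than Ccl19 and varied less. Ccl21a had 45.7 CPM in PM10/OVA/Dex, 47.7 CPM in PM10/OVA/CPX, 36.4 CPM in PM10/OVA, 35.5 CPM in PM10 and 35.3 CPM in Control. Ccl21b and Ccl21c had 0 counts in every library. Lymphatic endothelium, a source of CCL21, had none of its 9 measured genes, of which Ccl21a is 1, past 2-fold in any of the 8 comparisons. Ackr4, an atypical receptor that removes CCL19 and CCL21, had 7.15 CPM in PM10/OVA/Dex, 13.2 CPM in PM10/OVA/CPX, 12.7 CPM in PM10/OVA, 12.3 CPM in PM10 and 16.7 CPM in Control. It fell in PM10/OVA/Dex against Control and was under 2-fold in PM10/OVA/Dex against PM10/OVA.

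Ccl20, the epithelial ligand of CCR6, was the only member highest in the PM10/OVA/CPX library. It had 1.43 CPM (17 counts) in PM10/OVA/Dex, 3.11 CPM (39 counts) in PM10/OVA/CPX, 1.64 CPM (26 counts) in PM10/OVA, 0.580 CPM (7 counts) in PM10 and 0.922 CPM (16 counts) in Control. Of the neighbours in this order, only PM10/OVA/CPX and PM10/OVA differed beyond counting error, at 1.90-fold (1.13 to 3.25). Against Control, Ccl20 rose 3.38-fold (1.84 to 6.47) in PM10/OVA/CPX, and this call was lost with a pseudocount of 5 CPM, with a minimum mean of 5 CPM and after removal of a length and GC trend. In PM10/OVA it was 2.83-fold (1.20 to 7.72) above PM10, on 26 against 7 counts, which is under 2-fold on log2(CPM + 1). Ccl20 was thus the member whose folds were least precisely known. It lies at chr1:83116766-83119167 on the plus strand.

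Interleukin 17 is a known inducer of CCL20, and its axis gave 8 measured genes of 14. In PM10 against Control 4 of the 8 rose, with a median log2 ratio of 1.0, and in PM10/OVA against Control 5 rose, with a median of 1.28. These included the antimicrobial siderophore-binding gene Lcn2, at 1390 CPM in PM10/OVA, 980 CPM in PM10 and 68.6 CPM in Control, and Il1b, at 133 CPM in PM10/OVA, 54.4 CPM in PM10 and 16.5 CPM in Control. In PM10/OVA/CPX against PM10/OVA 2 of the 8 fell, Il6 (5 against 58 counts) and Il1b (45.4 against 133 CPM). In PM10/OVA/Dex against PM10/OVA 3 fell, Il1b (30.6 against 133 CPM), Il6 (5 against 58 counts) and Lcn2 (462 against 1390 CPM). The summed axis was 923 CPM in PM10/OVA/CPX and 1665 CPM in PM10/OVA, and most of that difference was Lcn2, at 716 against 1390 CPM and under 2-fold. Nfkbiz, which encodes an NF-kB cofactor, was higher in PM10/OVA/CPX, as Ccl20 was, at 64.5 against 43.7 CPM. Il17a itself missed the limit of 1 CPM and was chosen after its values were seen. It had 13 counts in PM10/OVA/Dex, 45 in PM10/OVA/CPX, 4 in PM10/OVA and 0 in both PM10 and Control, where a count of 0 allows up to 0.249 CPM in PM10 and 0.173 CPM in Control. The part of this axis in the Ccl20 levels was not tested.

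Cxcl12, the stromal ligand of CXCR4, was the most abundant of the 4 ligands and varied least. It had 451 CPM in PM10/OVA/Dex, 341 CPM in PM10/OVA/CPX, 419 CPM in PM10/OVA, 364 CPM in PM10 and 325 CPM in Control, on 4268 to 6643 counts. All neighbours in this order differed beyond counting error, but the largest ratio was 1.39-fold (1.34 to 1.44), in PM10/OVA/Dex over Control, and no replicate is available to judge it against. Cxcl12 was the only member above its PM10/OVA level in the PM10/OVA/Dex library, at 1.08-fold (1.04 to 1.12), and it was 1.23-fold lower (1.18 to 1.28) in PM10/OVA/CPX than in PM10/OVA. Fibroblast genes had another order of libraries than Cxcl12, with the highest sum in Control, where Cxcl12 was lowest. Fibroblasts are a known source, but their part in the Cxcl12 levels was not tested. Their 14 genes summed to 7667 CPM in PM10/OVA/Dex, 7262 CPM in PM10/OVA/CPX, 6533 CPM in PM10/OVA, 8277 CPM in PM10 and 8737 CPM in Control. Per 1000 counts of these genes Cxcl12 had 58.8 in PM10/OVA/Dex, 46.9 in PM10/OVA/CPX, 64.1 in PM10/OVA, 44.0 in PM10 and 37.2 in Control. Ackr3, the atypical receptor that removes CXCL12, had 36.1 CPM in PM10/OVA/Dex, 43.8 CPM in PM10/OVA/CPX, 38.7 CPM in PM10/OVA, 40.6 CPM in PM10 and 52.8 CPM in Control. No comparison put Cxcl12 or Ackr3 past 2-fold. Cxcl12 lies at chr6:117168535-117181367 on the plus strand.

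Cxcr5, the receptor for CXCL13 on B cells and follicular helper T cells, was 0.859-fold (0.701 to 1.05) its Control level in PM10, where its ligand was high, and was lowest under dexamethasone. It had 6.98 CPM (83 counts) in PM10/OVA/Dex, 9.74 CPM (122 counts) in PM10/OVA/CPX, 15.7 CPM (249 counts) in PM10/OVA, 13.2 CPM (159 counts) in PM10 and 15.3 CPM (266 counts) in Control. The 3 libraries without a drug were within counting error of their neighbours, and both drug libraries lay below them. Cxcr5 fell 2.25-fold (1.75 to 2.92) in PM10/OVA/Dex against PM10/OVA and 2.20-fold (1.71 to 2.85) against Control, calls that a pseudocount of 5 CPM removed. It was 1.61-fold lower (1.29 to 2.02) in PM10/OVA/CPX than in PM10/OVA. Per length, Cxcl13 exceeded Cxcr5 7.23-fold (5.58 to 9.44) in PM10/OVA/Dex, 3.11-fold (2.41 to 4.01) in PM10/OVA/CPX, 10.4-fold (9.0 to 12) in PM10/OVA, 11.5-fold (9.68 to 13.8) in PM10 and 1.82-fold (1.49 to 2.22) in Control. The gene (chr9:44511787-44561877, minus strand) shares an exon with Bcl9l on the other strand, and the sources used here do not state the strand setting of the counting, so some of its counts may belong to Bcl9l.

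B cell genes were lowest in the same library. The 20 B cell genes, all measured, summed to 259 CPM in PM10/OVA/Dex, 390 CPM in PM10/OVA/CPX, 520 CPM in PM10/OVA, 391 CPM in PM10 and 418 CPM in Control. In PM10/OVA/Dex against PM10/OVA 11 of the 20 fell, with a median log2 ratio of -1.01, against -0.01 over all measured genes. Among them were the low-affinity IgE receptor gene Fcer2a at 6.39 against 40.1 CPM, the complement receptor gene Cr2 at 3.2 against 10.5 CPM, and the antigen receptor gene Cd79b at 21.9 against 62.1 CPM. In PM10/OVA/CPX against PM10/OVA 1 of the 20 fell, Fcer2a at 18.7 against 40.1 CPM, and the median was -0.46. Ms4a1, which encodes the B cell surface protein CD20, had 16.8 CPM in PM10/OVA/Dex, 32.7 CPM in PM10/OVA/CPX, 45 CPM in PM10/OVA, 27.4 CPM in PM10 and 36.2 CPM in Control. Per 1000 counts of the B cell genes, Cxcr5 had 26.9 (21.4 to 33.5) in PM10/OVA/Dex, 24.9 (20.7 to 29.9) in PM10/OVA/CPX, 30.2 (26.5 to 34.3) in PM10/OVA, 33.6 (28.5 to 39.4) in PM10 and 36.7 (32.4 to 41.5) in Control. After this division the interval of PM10/OVA/Dex overlapped that of PM10/OVA, and the part of B cells in the Cxcr5 levels was not tested further.

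Ccr7, the receptor for CCL19 and CCL21, followed almost the same pattern as Cxcr5. It had 11.9 CPM (142 counts) in PM10/OVA/Dex, 16.7 CPM (209 counts) in PM10/OVA/CPX, 25.5 CPM (404 counts) in PM10/OVA, 24.9 CPM (300 counts) in PM10 and 26.3 CPM (456 counts) in Control. Again the 3 libraries without a drug were within counting error of their neighbours and the drug libraries were lower. Ccr7 fell 2.13-fold (1.76 to 2.60) in PM10/OVA/Dex against PM10/OVA and 2.20-fold (1.82 to 2.68) against Control, and a pseudocount of 5 CPM removed both calls. Removal of the length and GC trend also took the first of these calls below 2-fold on log2(CPM + 1). It was 1.53-fold lower (1.29 to 1.81) in PM10/OVA/CPX than in PM10/OVA. Among 11994 genes, the one with the most similar pattern to Cxcr5 was Ccr7 and the one with the most similar pattern to Ccr7 was Cxcr5 (root-mean-square difference 0.0694). Next were the B cell kinase gene Blk (0.0902) and Jrk (0.0925) for Cxcr5, and Rasgrp1 (0.0942), which encodes a Ras activator of T cells, and Col15a1 (0.108) for Ccr7. These values describe 5 libraries and carry no test. Ccr7 lies at chr11:99144196-99155077 on the minus strand.

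T cell genes were closer to their PM10/OVA levels under the drugs. The 20 T cell genes summed to 244 CPM in PM10/OVA/Dex, 312 CPM in PM10/OVA/CPX, 327 CPM in PM10/OVA, 355 CPM in PM10 and 294 CPM in Control. None of the 20 passed 2-fold in PM10/OVA/Dex against PM10/OVA, but 19 lay below 0 and their median log2 ratio was -0.40. None passed 2-fold in PM10/OVA/CPX against PM10/OVA either, where the median was 0.02. Cd3e, a subunit of the T cell receptor complex, had 6.90 CPM in PM10/OVA/Dex, 9.42 CPM in PM10/OVA/CPX, 9.27 CPM in PM10/OVA, 8.61 CPM in PM10 and 7.90 CPM in Control. Per 1000 counts of the T cell genes, Ccr7 had 49.0 (41.1 to 58.0) in PM10/OVA/Dex, 53.5 (46.4 to 61.5) in PM10/OVA/CPX, 77.8 (70.2 to 86.1) in PM10/OVA, 70.0 (62.0 to 78.7) in PM10 and 89.4 (81.0 to 98.4) in Control. Neither drug interval overlapped that of PM10/OVA after this division. Of 14 measured genes of mature migratory dendritic cells, 3 fell in PM10/OVA/Dex against PM10/OVA, including the actin-bundling gene Fscn1 at 29.0 against 63.3 CPM. In PM10/OVA/CPX against PM10/OVA 2 fell, the chemokine gene Ccl22 at 5.83 against 21.7 CPM and Il4i1 at 8.22 against 38.7 CPM. Over the 14 the median log2 ratio was -0.34 in PM10/OVA/Dex and -0.21 in PM10/OVA/CPX against PM10/OVA, with 5 above 0 in each. Per 1000 counts of these genes Ccr7 had 15.6 (13.1 to 18.4) in PM10/OVA/Dex, 20.3 (17.6 to 23.3) in PM10/OVA/CPX, 27.3 (24.6 to 30.1) in PM10/OVA, 28.1 (25 to 31.5) in PM10 and 41.1 (37.3 to 45.1) in Control. Divided by the B cell genes instead, Ccr7 had, per 1000 of their counts, 46.1 (38.7 to 54.5) in PM10/OVA/Dex, 42.7 (37.0 to 49.1) in PM10/OVA/CPX, 49.0 (44.3 to 54.2) in PM10/OVA, 63.5 (56.3 to 71.4) in PM10 and 63.0 (57.1 to 69.2) in Control, and both drug intervals overlapped that of PM10/OVA. The part of these cell types in the Ccr7 levels was not tested.

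**Figure D2:**
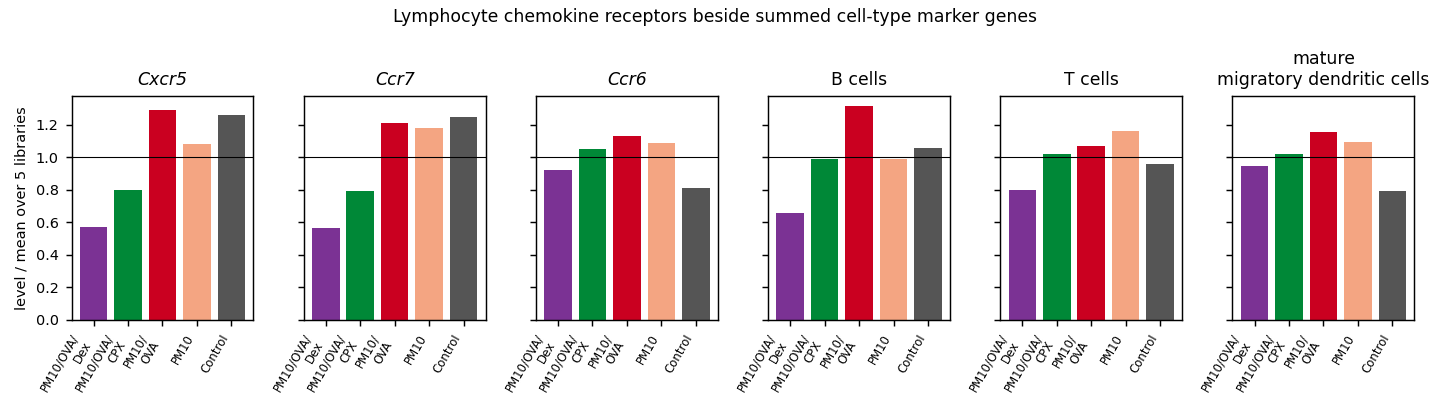
Levels of Cxcr5, Ccr7 and Ccr6 and summed CPM of the B cell, T cell and mature dendritic cell genes, each divided by its own mean over the 5 libraries (line at 1). Cxcr5, Ccr7, the B cell genes and the T cell genes are lowest in PM10/OVA/Dex, at 6.98, 11.9, 259 and 244 CPM. Ccr6 and the dendritic cell genes are lowest in Control, at 3.40 and 640 CPM.

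Ccr6, the receptor for CCL20, was the steadiest of the 4 receptors. It had 3.87 CPM (46 counts) in PM10/OVA/Dex, 4.39 CPM (55 counts) in PM10/OVA/CPX, 4.73 CPM (75 counts) in PM10/OVA, 4.56 CPM (55 counts) in PM10 and 3.40 CPM (59 counts) in Control. No neighbours differed beyond counting error, and its largest ratio, PM10/OVA over Control, was 1.39-fold (0.976 to 1.99). Differences of this size could not be told from counting error at this depth. Per 1000 counts of the B cell genes Ccr6 had 14.9 (10.9 to 20.0) in PM10/OVA/Dex and 11.2 (8.46 to 14.7) in PM10/OVA/CPX. It had 9.10 (7.15 to 11.4) in PM10/OVA, 11.6 (8.75 to 15.2) in PM10 and 8.15 (6.19 to 10.5) in Control. The interval of PM10/OVA/Dex overlapped that of PM10/OVA but not that of Control. Overlap of separate intervals does not show that levels are equal. Per length, Ccl20 over Ccr6 was 0.603 (0.324 to 1.07) in PM10/OVA/Dex, 1.16 (0.748 to 1.78) in PM10/OVA/CPX, 0.566 (0.348 to 0.895) in PM10/OVA, 0.208 (0.0798 to 0.458) in PM10 and 0.443 (0.238 to 0.780) in Control. Ccr6 lies at chr17:8236043-8257141 on the plus strand.

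Cxcr4, the receptor for CXCL12, was highest in PM10/OVA. It had 86.4 CPM (1027 counts) in PM10/OVA/Dex, 103 CPM (1292 counts) in PM10/OVA/CPX, 146 CPM (2320 counts) in PM10/OVA, 106 CPM (1280 counts) in PM10 and 95 CPM (1648 counts) in Control. PM10/OVA lay above every other library beyond counting error, and PM10 and PM10/OVA/CPX were within counting error of each other at a ratio of 1.03 (0.951 to 1.11). Cxcr4 was 1.38-fold higher (1.29 to 1.48) in PM10/OVA than in PM10, 1.42-fold lower (1.32 to 1.52) in PM10/OVA/CPX than in PM10/OVA and 1.69-fold lower (1.57 to 1.83) in PM10/OVA/Dex than in PM10/OVA. None of these reached 2-fold. The sum of the 11 measured neutrophil genes, of a cell type that carries CXCR4, was also highest in PM10/OVA. It was 405 CPM in PM10/OVA/Dex, 651 CPM in PM10/OVA/CPX, 849 CPM in PM10/OVA, 333 CPM in PM10 and 247 CPM in Control. Of the 11 genes, 8 rose in PM10/OVA against PM10, with a median log2 ratio of 1.15. Per 1000 counts of these genes Cxcr4 had 213 in PM10/OVA/Dex, 158 in PM10/OVA/CPX, 172 in PM10/OVA, 319 in PM10 and 384 in Control. After this division PM10/OVA was not the highest library. Division by T cell or endothelial genes instead left PM10/OVA highest, with an interval that overlapped no other. Per 1000 T cell gene counts Cxcr4 had 447 in PM10/OVA, 354 in PM10/OVA/Dex, 331 in PM10/OVA/CPX, 323 in Control and 299 in PM10. Per 1000 endothelial gene counts (16 genes) Cxcr4 had 23.95 in PM10/OVA, 17.3 in PM10, 16.5 in PM10/OVA/CPX, 13.3 in Control and 11.9 in PM10/OVA/Dex. The part of neutrophils in the Cxcr4 levels was not tested. The mitochondrial superoxide dismutase gene Sod2 had the most similar pattern to Cxcr4 (0.0326). Cxcr4 lies at chr1:128588199-128592293 on the minus strand.

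PM10 against Control sets particulate matter alone beside no treatment, with 1 library each and more heart muscle, fat and cartilage RNA in Control. Of the 8 genes only Cxcl13 rose and none fell, where 3.70% of measured genes rose and 2.04% fell by the same threshold of 2-fold. The median log2 ratio of the 8 was 0.16, against -0.00 over all measured genes, with 5 above 0 and 3 below. PM10/OVA against PM10 sets the library with added allergen beside that with particles alone. None of the 8 passed 2-fold, where 0.692% of genes were higher and 1.27% lower, and the median was 0.22, with the largest ratio for Ccl20 at 0.74. All 8 ratios lay above 0 on this scale, but with the length and GC trend removed the folds of Cxcl13 (0.977), Ccr6 (0.985) and Ccr7 (0.982) were below 1. PM10/OVA against Control gave Cxcl13 as the only gene that rose, at 5.84-fold (4.94 to 6.93), where 3.17% of genes were higher and 2.73% lower. Its median was 0.42, with 7 genes above 0 and Ccr7 below. Cxcr5, at 1.02-fold, was below 1 with the trend removed (0.984) and with scaling by library total (0.988). These 3 comparisons share libraries and are not independent of each other.

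**Figure D3:**
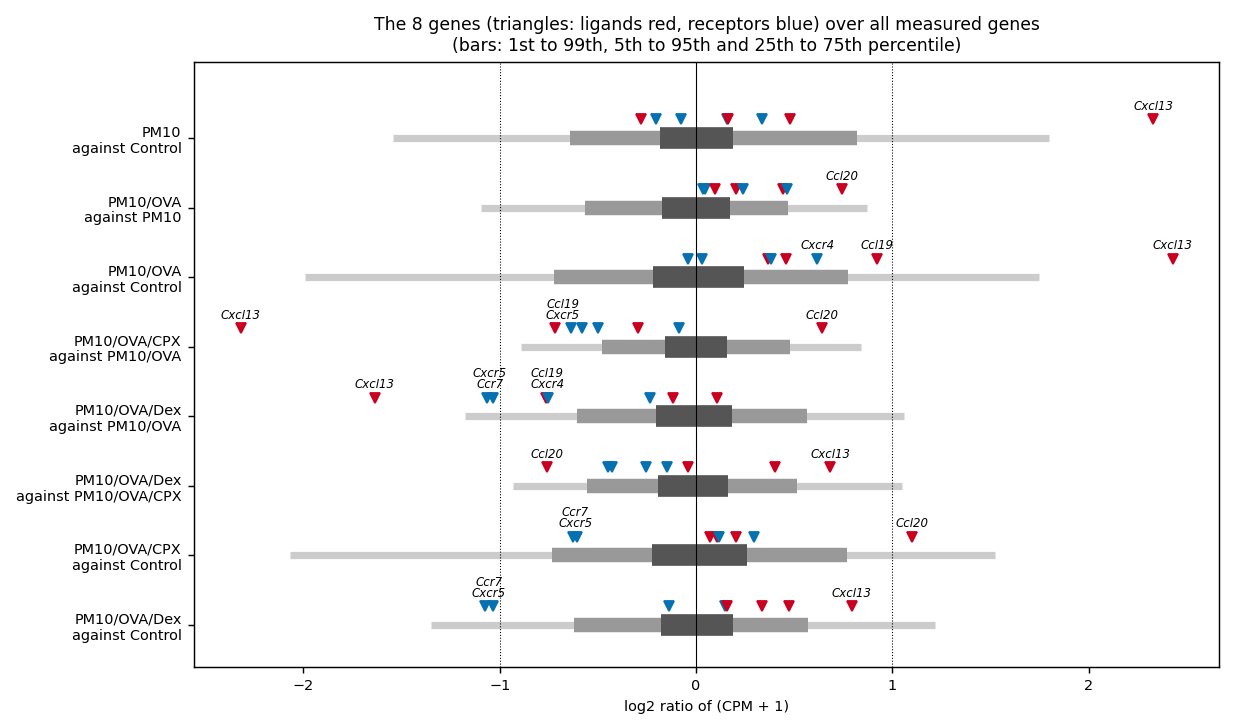
Ratios on log2(CPM + 1) of the 8 genes (triangles, ligands red and receptors blue) in each of the 8 comparisons, above bars for all 14305 measured genes (outer, middle and inner bar as named in the title). Dotted lines mark 2-fold, and the members with the larger ratios are named. Cxcl13 lies outside the outer bar in 4 of the 8 comparisons, at 2.33, 2.43, -2.32 and -1.64.

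The drug comparisons set each drug library beside the PM10/OVA library, again with 1 library each. Of the 8 genes, 1 (Cxcl13) fell and none rose in PM10/OVA/CPX against PM10/OVA, where 0.762% of measured genes were lower and 0.636% higher. The median was -0.54, against -0.00 over all genes, with 7 ratios below 0 and Ccl20 above. In PM10/OVA/Dex against PM10/OVA, 3 of the 8 fell (Cxcl13, Cxcr5 and Ccr7), where 1.60% of genes were lower and 1.20% higher. The median was -0.76, against -0.01 over all genes, with 7 ratios below 0 and Cxcl12 above. Both drug ratios use the same PM10/OVA library and are not independent.

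The drugs were also set against each other and against Control, which leaves out the PM10/OVA library. In PM10/OVA/Dex against PM10/OVA/CPX none of the 8 passed 2-fold, where 1.06% of genes were higher and 0.734% lower, and the median was -0.20. Cxcl13 was 1.66-fold higher (1.33 to 2.09) and Ccl20 2.18-fold lower (1.20 to 4.11) in PM10/OVA/Dex than in PM10/OVA/CPX. Against Control, 1 gene (Ccl20) rose in PM10/OVA/CPX, where 2.73% of genes were higher and 2.99% lower, and the median was 0.11. Cxcl13 was then 1.09-fold (0.858 to 1.37) its Control level, and Cxcr5 and Ccr7 were 1.57-fold (1.27 to 1.97) and 1.58-fold (1.33 to 1.86) lower. In PM10/OVA/Dex against Control 2 genes fell (Cxcr5 and Ccr7), where 2.01% of genes were lower and 1.57% higher, and the median was 0.15. Cxcl13 was 1.81-fold (1.47 to 2.23) above Control there.

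**Figure D4:**
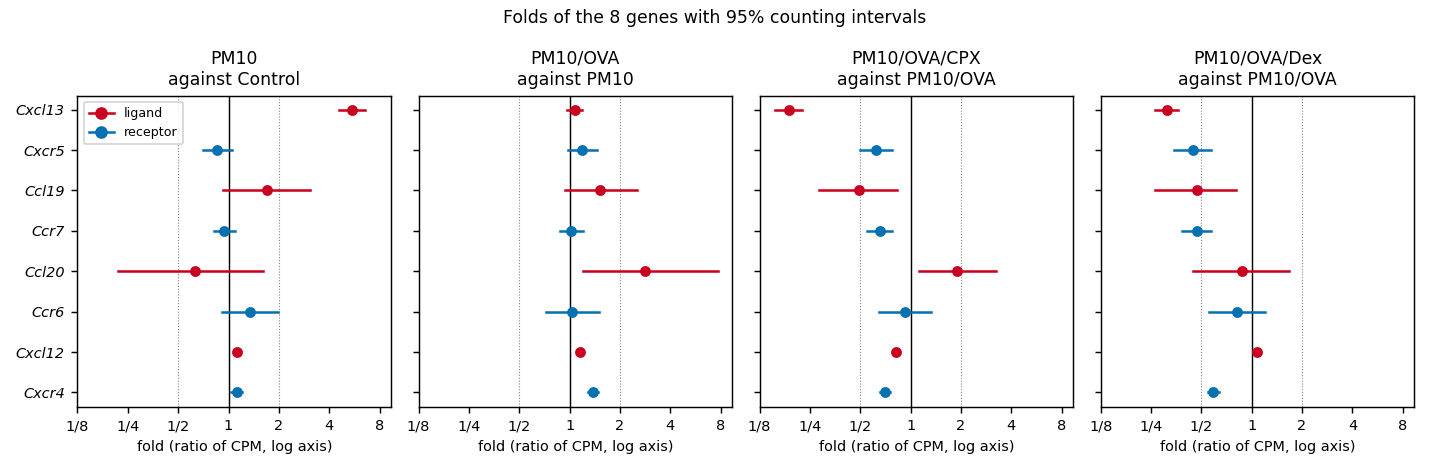
Ratios of CPM (log axis) of the 8 genes in 4 comparisons, each ligand above its receptor, with 95% counting intervals as lines; dotted lines mark 2-fold. Cxcl13 lies far right in PM10 against Control (5.45) and far left in both drug panels (0.186 and 0.310), and the widest intervals belong to Ccl20 and Ccl19.

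Some genes of a list of lymphotoxin, tumour necrosis factor family and non-canonical NF-kB genes rose with exposure. Lymphotoxin, acting through non-canonical NF-kB, and tumour necrosis factor switch on Cxcl13 and Ccl19 in lymphoid stroma. Of 16 measured genes of this list, 2 rose in PM10 against Control (median 0.37) and 5 in PM10/OVA against Control (median 0.79). The 2 were Tnf and Tnfsf13, the second at 32.6 CPM in PM10 and 14.2 CPM in Control. The 5 included Tnfsf13 and Tnfsf13b. Ltb and the lymphotoxin receptor gene Ltbr stayed under 2-fold in both comparisons. Tnf had 1.01 CPM (12 counts) in PM10/OVA/Dex, 1.92 CPM (24 counts) in PM10/OVA/CPX, 7.07 CPM (112 counts) in PM10/OVA, 4.31 CPM (52 counts) in PM10 and 0.346 CPM (6 counts) in Control. Tnf was the only gene of the 16 that fell in PM10/OVA/CPX against PM10/OVA (median -0.27) and likewise in PM10/OVA/Dex against PM10/OVA (median -0.40). The 2 highest libraries of Tnf were PM10/OVA and PM10, as for Cxcl13, whose levels in them were within counting error of each other. The part of Tnf in the Cxcl13 levels was not tested. Nfkb2, a transcription factor gene of the non-canonical pathway, had 88.6 CPM in PM10/OVA and 41.6 CPM in Control. Ltb, a lymphotoxin subunit, had 40.3 CPM in PM10/OVA/Dex, 52.3 CPM in PM10/OVA/CPX, 69.3 CPM in PM10/OVA, 43.1 CPM in PM10 and 40.1 CPM in Control, and Lta was at most 0.883 CPM. High endothelial venules, the vessels through which lymphocytes enter lymphoid tissue, gave 5 measured genes. The selectin gene Selp was 7.15 CPM in PM10/OVA/Dex, 7.43 CPM in PM10/OVA/CPX and 22.0 CPM in PM10/OVA, and it fell under both drugs. The addressin gene Glycam1 had 17 counts in PM10/OVA/Dex and at most 5 in the other 4 libraries.

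Among 8 measured other homeostatic chemokines, the dendritic cell products Ccl17 and Ccl22, which act on CCR4, had the largest ratios in PM10/OVA against Control. Ccl17 had 8.66 CPM in PM10/OVA/Dex, 10.3 CPM in PM10/OVA/CPX, 14.1 CPM in PM10/OVA, 4.64 CPM in PM10 and 1.10 CPM in Control. Ccl22 had 6.90 CPM in PM10/OVA/Dex, 5.83 CPM in PM10/OVA/CPX, 21.7 CPM in PM10/OVA, 10.9 CPM in PM10 and 2.19 CPM in Control. In PM10 against Control 3 of the 8 rose (median 0.21), in PM10/OVA against Control 2 rose (median 0.31), and Ccl22 alone fell under either drug against PM10/OVA. Of 4 measured other receptors, 1 rose in PM10/OVA/CPX against PM10/OVA, Cxcr6 at 18.5 against 7.38 CPM. Of 9 atypical receptors and shared partners, 1 rose in PM10/OVA against Control, the venular chemokine-binding receptor gene Ackr1 at 3.91 against 0.980 CPM, and none passed 2-fold under either drug against PM10/OVA. Of 18 intracellular signalling genes below the receptors, 3 rose in PM10/OVA against Control (median 0.38). Of the same genes 1 fell in PM10/OVA/Dex against PM10/OVA, the signalling brake Rgs16 at 2.35 against 6.69 CPM, and none passed 2-fold in PM10/OVA/CPX against PM10/OVA.

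**Figure D5:**
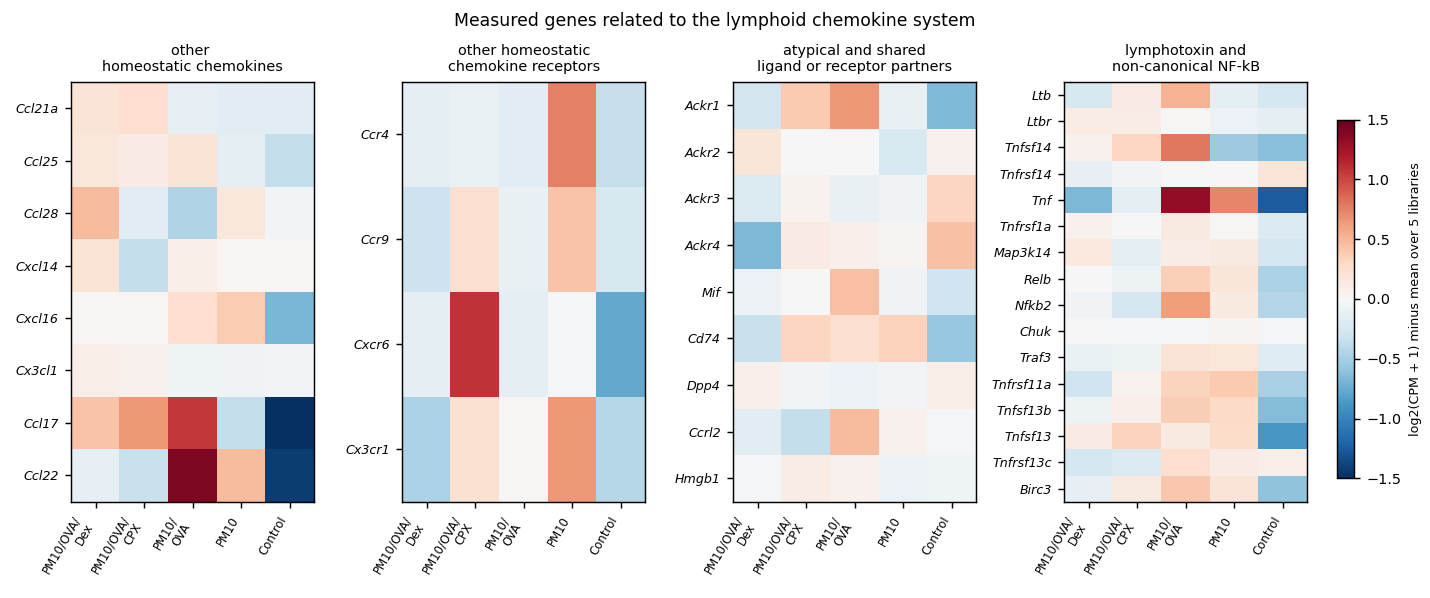
Deviation of log2(CPM + 1) from the mean over the 5 libraries (red above, blue below; values past the ends of the colour bar take its end colour) for the measured genes of 4 related lists. Ccl17, Ccl22 and Tnf are darkest red in PM10/OVA, at 14.1, 21.7 and 7.07 CPM, and dark blue in Control, at 1.10, 2.19 and 0.346 CPM.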

How the data were processed

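RNA of 5 whole-lung samples was extracted with Trizol and made into libraries with a stranded kit (NEBNext Ultra II Directional), per the labels' protocols. Reads were aligned with TopHat to mm10, per the submitters' processing notes. Software versions, how reads were counted, the annotation and the strand setting: not given in the sources used here. For each library the authors deposited 1 table of raw read counts by gene symbol, not normalized.

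Counts were scaled with TMM factors (edgeR 4.0.16, R 4.3.3; factors 0.989 to 1.02) to CPM. A count was worth 0.0577 to 0.0841 CPM, and 3 counts were taken as the limit that a count of 0 allows. Genes averaging 1 CPM or more were kept, and ratios were taken on log2(CPM + 1), which understates the change of low genes. A gene was counted as changed when at least 2-fold different on that scale. Folds are ratios of CPM with exact conditional 95% intervals. There are 8 comparisons and 26 gene lists. Exon lengths, positions and overlaps came from GENCODE M21 (98.4% of symbols matched). The steps were tested on simulated data.

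The 8 genes and the lists were chosen with earlier results of these data known. Named were the 8 genes, up to 4 genes with the largest ratios, in size, from any list described, a few shared ligands, scavenger receptors, lymphotoxin and cell-marker genes, and the 3 genes of most similar pattern; genes chosen after their values were seen are said to be so. Alternatives were DESeq2 1.42.0 size factors, library totals, other pseudocounts, other filters, and removal of a trend with length and GC content. Each group has 1 library, so leaving out a replicate was not an option.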

Additional observations from a re-analysis of the deposited data

How the results depend on the processing

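None of the 8 chemokine and receptor genes turned its direction, under the alternatives run, in a comparison where it was at least 2-fold different. With a pseudocount of 5 CPM the measured genes at least 2-fold different, either way, numbered 445 in PM10 against Control, 132 in PM10/OVA against PM10, 464 in PM10/OVA against Control, 93 in PM10/OVA/CPX against PM10/OVA, 156 in PM10/OVA/Dex against PM10/OVA, 86 in PM10/OVA/Dex against PM10/OVA/CPX, 413 in PM10/OVA/CPX against Control and 232 in PM10/OVA/Dex against Control, instead of 821, 281, 844, 200, 401, 256, 819 and 513. Of the 8, 1 (Cxcl13) then passed in PM10/OVA/Dex against PM10/OVA and 0 in each drug library against Control. With 0.25 CPM the genes numbered 481 in PM10/OVA against PM10, 359 in PM10/OVA/CPX against PM10/OVA, 619 in PM10/OVA/Dex against PM10/OVA and 499 in PM10/OVA/Dex against PM10/OVA/CPX. Members then passing were 1 in PM10/OVA against PM10 (Ccl20, higher), 2 in PM10/OVA against Control (Cxcl13 and Ccl19, higher) and 1 in PM10/OVA/Dex against PM10/OVA/CPX (Ccl20, lower). With a minimum mean of 5 CPM, which leaves 11994 genes and 5 of the members, the genes numbered 126 in PM10/OVA/CPX against PM10/OVA, 160 in PM10/OVA/Dex against PM10/OVA/CPX, 513 in PM10/OVA/CPX against Control and 338 in PM10/OVA/Dex against Control, and 0 members passed in PM10/OVA/CPX against Control. Removing the length and GC trend (fitted on 99.4% of measured genes) also left 0 there. It moved 9 of 64 member folds beyond their counting interval, by at most 1.30-fold; library totals moved 1 and DESeq2 size factors 0. Among folds under the threshold, 7 crossed 1 with the trend removed (0.953 to 1.09 before, 0.837 to 1.02 after) and 1 with library totals (Cxcr5 in PM10/OVA against Control, 0.988). The trend also left 2 members, not 3, in PM10/OVA/Dex against PM10/OVA, without Ccr7. No paired analysis was possible because each group has 1 library. Ccl19 and Ccl20, with 7 to 54 counts, are the members most limited by depth.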

Other observations

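A pair of plasma cell genes went the other way from the B cell genes under both drugs. Of 8 measured plasma cell genes, 2 rose in PM10/OVA/CPX against PM10/OVA and 2 in PM10/OVA/Dex against PM10/OVA, with median log2 ratios of 0.33 and -0.15 over the list. Jchain, which encodes the joining chain of secreted IgA and IgM, had 377 CPM in PM10/OVA/Dex, 942 CPM in PM10/OVA/CPX, 74.4 CPM in PM10/OVA, 44.5 CPM in PM10 and 49.6 CPM in Control. It was 12.7-fold higher (11.9 to 13.4) in PM10/OVA/CPX and 5.07-fold higher (4.75 to 5.41) in PM10/OVA/Dex than in PM10/OVA. Mzb1, an endoplasmic reticulum protein of antibody-secreting cells, had 25 CPM in PM10/OVA/Dex, 45.8 CPM in PM10/OVA/CPX, 10.9 CPM in PM10/OVA, 6.96 CPM in PM10 and 8.19 CPM in Control. Both genes had the same order of libraries as Il17a in the 3 groups that received OVA. Il17a was chosen after its values were seen, and a link between these genes was not tested. The CXCL13 receptor gene Cxcr5, which mature plasma cells no longer carry, was lower in both drug libraries than in PM10/OVA.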
